A study of Mus musculus with 8 samples.

Results

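The G protein-coupled receptor kinases (GRKs) phosphorylate receptors that have been activated by their ligand, and beta-arrestins then bind the phosphorylated receptor, stop its coupling to G proteins and take it into the cell. Chemokine receptors, complement receptors and the receptors of many lipid mediators belong to this receptor class. Bone marrow cultured with the growth factor GM-CSF yields bone marrow-derived dendritic cells (BMDCs), a mixed culture with cells close to dendritic cells (DCs) and cells close to macrophages. The comparison described here is that of 3xGrk-/- with WT BMDCs that received no LPS. It was chosen by the labels alone, as the libraries of both genotypes marked untreated. It takes 4 of the 8 libraries of the series, 2 for each genotype. The other 4 are of cells stimulated with LPS, a bacterial cell wall component that drives maturation, and enter where the effect of the genotype after LPS is set beside that without it, and in an alternative fit of all 8 libraries.

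The 3xGrk-/- cells came from mice with a germline loss of Grk3 (-/-), floxed Grk2 and Grk6 on both chromosomes (fl/fl) and Vav1-iCre. The Vav1 promoter drives this Cre recombinase in blood-forming cells, so that Grk2 and Grk6 are deleted in them and their descendants. The WT controls carried no Cre, and whether they carried floxed alleles is not given in the sources used here. Both strains were on the C57BL6/J background, and mice were adult and matched for age and sex. The labels do not say whether the libraries of a genotype came from separate mice or cultures, and the methods speak of technical replicates. Every p-value below therefore measures only the spread between these libraries, and the genotype cannot be told apart from the culture or mouse. An exact two-sided permutation test of 2 libraries against 2 cannot give a p below 0.333. The adjusted p given here come from edgeR's quasi-likelihood test, which estimates the spread over all genes, with Benjamini-Hochberg adjustment.

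The libraries held between 4713305 and 6459415 reads counted on genes. Levels are given as CPM, the count of a gene scaled to a common library size with TMM factors, in the order replicate 1 and replicate 2. Changes are log2 of 3xGrk-/- over WT, so that a negative value is a lower level in 3xGrk-/- cells. All 10 defining BMDC markers, among them Ptprc, Csf2ra and Itgax, passed the filter on low counts in these libraries. Of these markers 6 were higher and 3 lower in 3xGrk-/- cells, and the class II genes H2-Ab1 and Cd74 fell (log2 fold changes −1.67 and −0.9). The sum over the markers was 22051 and 22306 CPM in WT and 15883 and 15653 CPM in 3xGrk-/- libraries. The 4 Y-linked genes that were tested gave no call, but 1 was called lower without WT replicate 1 and with library sizes unscaled. Of the targeted genes, Grk2 had 346 and 346 CPM in WT and 163 and 158 CPM in 3xGrk-/-. Grk6 had 92.2 and 89.9 CPM in WT and 39.8 and 39.9 CPM in 3xGrk-/-. Grk3 had 364 and 367 CPM in WT and 288 and 284 CPM in 3xGrk-/-. All 3 fell (log2 fold changes −1.11, −1.19 and −0.36), and reads remained on each. Where on the genes these reads lie was not tested. Grk5, a kinase that was not targeted, had 28.3 and 27.2 CPM in WT and 24.03 and 22.8 CPM in 3xGrk-/-. It was not called (adjusted p = 0.124). Of 7 kinase and arrestin genes tested, 2 were not called. The beta-arrestins were slightly higher: Arrb2 had 371 and 353 CPM in WT and 447 and 444 CPM in 3xGrk-/- (log2 fold change 0.3), and Arrb1 had 384 and 384 CPM in WT and 409 and 430.4 CPM in 3xGrk-/- (log2 fold change 0.13). The call of Arrb1 was lost when library sizes were not scaled, with DESeq2, when 3xGrk-/- replicate 2 was left out or when all 8 libraries shared a fit, and both beta-arrestins lost it with a biological coefficient of variation of 0.1 set for every gene.

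Of 12000 genes tested, 22.1% were called higher and 22.7% lower in 3xGrk-/- cells at an adjusted p under 0.05. Of these calls 49.3% were higher, or 35.8% with library sizes unscaled. With shares of this size, a call alone says little about a gene group. Calls with a change of 2-fold or more were less common: 578 genes were higher (4.82%) and 866 lower (7.22%). The counts below are read against these shares. A change of 16-fold or more was reached by 31 genes higher and 35 lower. The genes higher by 2-fold or more took 2.22% and 2.23% of all reads in the WT libraries and 8.12% and 8.04% in the 3xGrk-/- libraries. The genes lower by 2-fold or more took 4.73% and 4.69% in WT and 1.503% and 1.48% in 3xGrk-/-. Replicates of a genotype lay close together, with a common biological coefficient of variation of 0.0306, and 69.2% of the genes tested had no overlap between the genotypes. List counts at the wider spread, given below where they differ by over 1.5 times, were taken with a coefficient of 0.1 set for every gene.

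**Figure D1:**
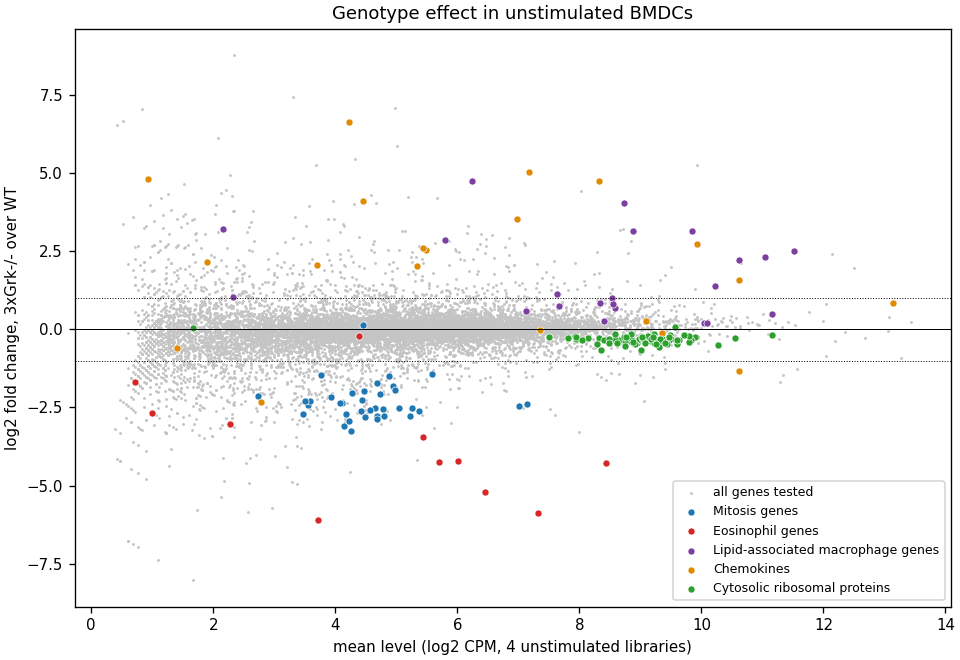
Each point is a gene, with its mean log2 CPM over the 4 unstimulated libraries on the x axis and its log2 fold change of 3xGrk-/- over WT on the y axis; dotted lines mark a 2-fold change and colours mark 5 gene lists. Mitosis genes lie around −2.41 and eosinophil genes around −4.22, lipid-associated macrophage genes all lie above 0, and ribosomal protein genes form a narrow band just below 0.

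The genes of cell division were lower, with 1 exception. Of the 38 mitosis genes tested, 37 fell, all 37 of them by 2-fold or more, with a median log2 fold change of −2.41 against −0.0017 over all genes tested. Ccnb2, the B-type cyclin that drives entry into mitosis, had 32.6 and 35.6 CPM in WT and 3.06 and 4.12 CPM in 3xGrk-/- (log2 fold change −3.26, SE 0.19, adjusted p = 9.00e-66). Plk1, a kinase needed for the mitotic spindle, had 32.8 and 29.6 CPM in WT and 3.23 and 4.12 CPM in 3xGrk-/- (log2 fold change −3.08, SE 0.19). Cenpf, a kinetochore protein, had 31.97 and 33.1 CPM in WT and 4.35 and 4.12 CPM in 3xGrk-/- (log2 fold change −2.93, SE 0.18). The naming rule given below took the largest falls without overlap of the genotypes, so the distance between these libraries follows from that choice. The sum over the list was 1815 and 1829 CPM in WT and 390.3 and 378 CPM in 3xGrk-/- libraries. Pttg1, which encodes securin, was the member that was not called, with 20.2 and 20.5 CPM in WT and 22.3 and 23.04 CPM in 3xGrk-/-. In RNA of whole cultures, fewer cells of a type and less RNA per cell cannot be told apart, here and in every result below.

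Genes of DNA replication fell as well, in 37 of 41 cases and by 2-fold or more in 23, with a median of −1.11. The replication factor Mcm10 had 24.95 and 30.96 CPM in WT and 3.71 and 3.93 CPM in 3xGrk-/- (log2 fold change −2.89, SE 0.19). The S-phase cyclin Ccne2 had 21.2 and 24.5 CPM in WT and 4.35 and 3.75 CPM in 3xGrk-/- (log2 fold change −2.5, SE 0.2). Rrm2, the regulated subunit of the enzyme that makes deoxynucleotides, had 114 and 102 CPM in WT and 20.2 and 18.5 CPM in 3xGrk-/- (log2 fold change −2.47, SE 0.096). These genes were taken by the same rule, so the distance between their libraries follows from the choice as well.

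Ribosomal protein genes showed a small shift that ran through most of the list. Of 77 tested, 75 were lower and none was higher, but none reached 2-fold, and the median was −0.32. Rpl10a had 382 and 423 CPM in WT and 258 and 249 CPM in 3xGrk-/- (log2 fold change −0.67, SE 0.044). Rps7 had 753 and 751 CPM in WT and 519 and 507 CPM in 3xGrk-/- (log2 fold change −0.55, SE 0.038). The number of members called lower was 75 under each other scaling of library sizes and 25 at the wider spread, and 1 member was called higher without WT replicate 1 or without the filter on low counts. Reads of these genes can also fall on their processed pseudogenes, and the 286 processed pseudogenes tested had a median log2 fold change of −0.51.

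The promoters of the cell division genes are shown because their members moved together. A CCAAT box, searched as CCAAT on both strands in the 250 bases before the start of each gene, was found in 25 of 34 mitosis genes with a window (73.5%) and in 20 of 33 replication genes (60.6%), and in 36.9% of all 9141 tested genes with a window. The box was as frequent in lists that moved less or otherwise: 81.8% of MHC class II genes, 78.3% of sterol and fatty acid synthesis genes, 71.4% of unfolded protein response genes and 64.3% of MHC class I genes held it. These shares describe the lists and were not tested. The windows of Ccnb2 and Plk1 were read from RefSeq on GRCm38.p6, and lie at chr9:70421555-70421804 on the minus strand and at chr7:122159185-122159434 on the plus strand. Capitals mark the CCAAT box, which occurs 3 times before Ccnb2 and 1 time before Plk1.
Ccnb2 promoter: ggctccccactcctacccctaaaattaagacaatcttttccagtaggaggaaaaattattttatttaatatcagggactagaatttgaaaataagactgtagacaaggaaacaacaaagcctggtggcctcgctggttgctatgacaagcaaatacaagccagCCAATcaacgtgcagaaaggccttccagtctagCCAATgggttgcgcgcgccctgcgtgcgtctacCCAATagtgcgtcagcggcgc
Plk1 promoter: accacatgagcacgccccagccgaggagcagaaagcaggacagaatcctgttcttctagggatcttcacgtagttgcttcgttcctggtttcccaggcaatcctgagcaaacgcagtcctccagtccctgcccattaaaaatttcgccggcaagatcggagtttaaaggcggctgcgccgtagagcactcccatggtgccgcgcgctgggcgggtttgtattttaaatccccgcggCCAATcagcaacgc

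Among the largest falls were those of eosinophil genes, which mark granulocytes that also arise in bone marrow. Of 11 eosinophil genes tested, 10 fell, each by 2-fold or more, and the median was −4.22. Prg3, Ccr3, Il5ra and Gata1 had under 10 counts in each 3xGrk-/- library and passed the filter through the WT libraries, and with at least 10 counts asked of every library 6 were called lower. Epx, the eosinophil peroxidase, had 299 and 327 CPM in WT and 5.81 and 4.68 CPM in 3xGrk-/- (log2 fold change −5.89, SE 0.095). Prg2, the major basic protein of eosinophil granules, had 646 and 675 CPM in WT and 34.2 and 34.3 CPM in 3xGrk-/- (log2 fold change −4.27, SE 0.058). Its paralogue Prg3 had 292 counts in the WT libraries together and 4 in the 3xGrk-/- libraries, a ratio of 73.4 with a 95% counting interval from 28.4 to 271. The eosinophil ribonuclease genes Ear1, Ear2 and Ear6 had log2 fold changes of −5.2, −4.22 and −4.24, but share reads with near-identical copies, so that their single values are uncertain. Alox15, a lipoxygenase that eosinophils and some macrophages use, had 79.2 and 79.1 CPM in WT and 6.61 and 7.87 CPM in 3xGrk-/- (log2 fold change −3.46, SE 0.13). Siglecf was the exception, with 22.1 and 22.05 CPM in WT and 20.5 and 17.8 CPM in 3xGrk-/- (adjusted p = 0.258). Summed over the list, levels were 1459 and 1537 CPM in WT and 87.5 and 80.7 CPM in 3xGrk-/- libraries, so that the genotypes were far apart.

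Markers of other cells that such a culture can hold did not follow one direction. Neutrophil genes summed to 1093 and 1040.3 CPM in WT and 1516 and 1549 CPM in 3xGrk-/- libraries, yet 2 of 18 were called higher (1 with DESeq2 or at the wider spread) and 8 lower. The rise of the sum came from Mmp8, a collagenase of neutrophil granules, with 112 and 114 CPM in WT and 784 and 834 CPM in 3xGrk-/-. Cebpe, a transcription factor of granule formation, had 17.3 and 14.95 CPM in WT and 6.93 and 5.43 CPM in 3xGrk-/-. Camp, the cathelicidin peptide, had 20.4 and 20.7 CPM in WT and 10.8 and 7.68 CPM in 3xGrk-/-. Of 7 mast cell and basophil genes tested, 2 were higher and 3 lower, 1 (14.3%) and 3 (42.9%) of them by 2-fold or more. With DESeq2 or with at least 10 counts in every library 1 was lower. Gata2, a transcription factor of these cells, was higher with 7.63 and 9.21 CPM in WT and 21.6 and 24.2 CPM in 3xGrk-/-. Hdc, the histamine-forming enzyme, was higher with 6.81 and 11.8 CPM in WT and 16.9 and 19.9 CPM in 3xGrk-/-. In the list of erythroid and megakaryocyte genes 4 of 11 were tested. Pf4 and Ppbp, platelet chemokines that myeloid cells also make, and Hbb-bt were higher, and the platelet integrin Itga2b fell, with 25.4 and 28.1 CPM in WT and 7.74 and 6.56 CPM in 3xGrk-/-. Only 2 of 15 lymphocyte genes and 1 of 12 stromal genes were tested, and 4 and 2 of them had no count at all. Il7r, the receptor of interleukin-7, had 111 and 119.9 CPM in WT and 167 and 179 CPM in 3xGrk-/- (log2 fold change 0.57, SE 0.057). Cd8a, which some DCs also express, had 4.33 and 2.57 CPM in WT and 0.484 and 0.936 CPM in 3xGrk-/- (log2 fold change −2.22, SE 0.49), and was not tested with at least 10 counts in every library. The stromal list's Pecam1 was not called (adjusted p = 0.174). The part of these cells in the results below was not tested.

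Genes linked to conventional DC1, the cross-presenting DC subset, split. Of 6 tested, 3 fell and 2 were higher, or 1 higher without 3xGrk-/- replicate 2, with DESeq2 or with at least 10 counts in every library. Wdfy4, needed for cross-presentation, had 735 and 733 CPM in WT and 228 and 222 CPM in 3xGrk-/- (log2 fold change −1.7, SE 0.042). The lysosomal amidase Naaa had 490.2 and 483 CPM in WT and 168 and 169.9 CPM in 3xGrk-/- (log2 fold change −1.53, SE 0.046). Tlr3, a sensor of double-stranded RNA, had 3.71 and 6.19 CPM in WT and 2.097 and 2.62 CPM in 3xGrk-/- (log2 fold change −1.13, SE 0.32). Clec9a, a receptor for dead cells, had 1.24 and 2.27 CPM in WT and 3.87 and 5.62 CPM in 3xGrk-/- (log2 fold change 1.34, SE 0.35). Batf3, the factor that the subset depends on, had 85.6 and 78.7 CPM in WT and 82.1 and 87.7 CPM in 3xGrk-/- and was not called. All 3 plasmacytoid DC genes tested were lower. Pacsin1 had 59.8 and 49.4 CPM in WT and 31.6 and 30.2 CPM in 3xGrk-/-. Tcf4 had 50.3 and 57.1 CPM in WT and 39.99 and 38.6 CPM in 3xGrk-/-. Bst2 had 122 and 124 CPM in WT and 95.8 and 98.3 CPM in 3xGrk-/-.

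Receptors coupled to G proteins, the substrates of GRKs, changed in both directions at the level of RNA. Of 47 such receptors tested outside the chemokine receptors, 23 were higher and 14 lower, and 14 (29.8%) and 11 (23.4%) of them by 2-fold or more. The receptors of the complement fragments C5a and C3a were among the higher ones: C5ar1 had 12.2 and 12.5 CPM in WT and 62.9 and 61.6 CPM in 3xGrk-/- (log2 fold change 2.33, SE 0.12). C3ar1 had 25.2 and 23.6 CPM in WT and 108 and 117 CPM in 3xGrk-/- (log2 fold change 2.21, SE 0.091). Gpr84, a receptor of medium-chain fatty acids, had 18.6 and 15.1 CPM in WT and 40.8 and 48.3 CPM in 3xGrk-/- (log2 fold change 1.42, SE 0.12). The lower receptors included those of other metabolites, Hcar2, the receptor of hydroxybutyrate and niacin, with 66.4 and 60.7 CPM in WT and 30.6 and 23.6 CPM in 3xGrk-/- (log2 fold change −1.21, SE 0.1). Ffar2, a receptor of short-chain fatty acids, had 22.1 and 22.5 CPM in WT and 6.13 and 5.62 CPM in 3xGrk-/- (log2 fold change −1.92, SE 0.18). Adgre4, an adhesion receptor of myeloid cells, had 22.7 and 19.3 CPM in WT and 6.29 and 7.12 CPM in 3xGrk-/- (log2 fold change −1.64, SE 0.18).

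Of 18 chemokine receptors 9 were tested, and 5 were higher and 2 lower, with library sizes unscaled 4 and 4. At the wider spread 3 were higher, and with at least 10 counts in every library 1 was lower. Ccr1, a receptor of inflammatory CC chemokines on monocytes, had 96.7 and 106 CPM in WT and 209 and 212 CPM in 3xGrk-/- (log2 fold change 1.04, SE 0.057). Ccrl2, which binds the chemoattractant chemerin without signalling, had 5.57 and 5.13 CPM in WT and 13.1 and 10.5 CPM in 3xGrk-/- (log2 fold change 1.15, SE 0.22). Ccr7, the receptor that guides DCs to lymph nodes, was higher by a small amount, with 1328 and 1312 CPM in WT and 1565 and 1562 CPM in 3xGrk-/- (log2 fold change 0.24, SE 0.032). Cxcr2, the receptor of neutrophil chemokines, was lower, with 23.9 and 22.05 CPM in WT and 12.3 and 14.2 CPM in 3xGrk-/- (log2 fold change −0.79, SE 0.15), and so was the eosinophil receptor Ccr3, with 7.01 and 8.76 CPM in WT and 0.968 and 0.936 CPM in 3xGrk-/- (log2 fold change −3.04, SE 0.36). Cxcr4, a receptor that holds cells in the bone marrow, was not called (adjusted p = 0.111).

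**Figure D2:**
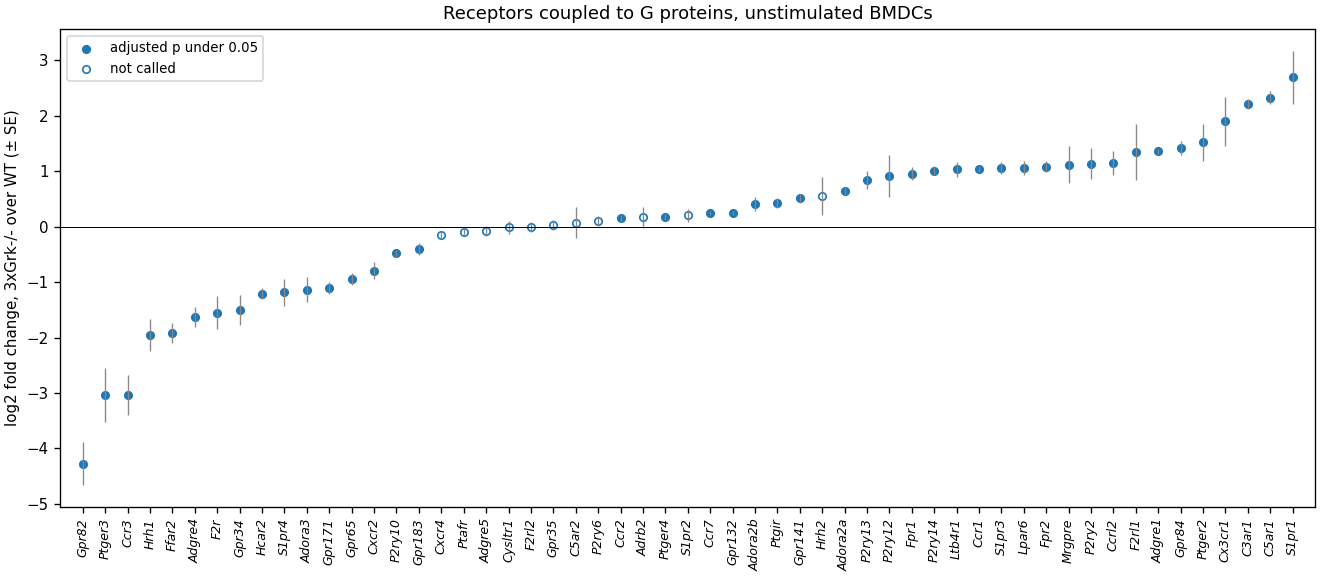
Points give the log2 fold change of 3xGrk-/- over WT for tested chemokine receptors and other receptors coupled to G proteins, bars the SE, and filled points an adjusted p under 0.05. Receptors run from Gpr82 at −4.27 to S1pr1 at 2.70, with called receptors on both sides of 0.

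Genes downstream of the receptors were also tested. Of 17 heterotrimeric G protein subunits, 9 were higher and 2 lower, none by 2-fold or more, and none was called higher at the wider spread. Gnb4, a beta subunit, was lower with 239 and 223 CPM in WT and 137 and 143 CPM in 3xGrk-/- (log2 fold change −0.72, SE 0.052). Gnb1, another beta subunit, was higher with 355 and 356 CPM in WT and 425 and 451 CPM in 3xGrk-/- (log2 fold change 0.3, SE 0.042). Of 10 regulators of G protein signalling (RGS proteins, which speed up the shutdown of G alpha subunits), 2 were higher and 3 lower, 1 in each direction by 2-fold or more, and 5 were lower with library sizes unscaled. At the wider spread 1 was called in each direction. Rgs11 had 2.06 and 1.81 CPM in WT and 7.58 and 7.87 CPM in 3xGrk-/- (log2 fold change 2.0, SE 0.31). Rgs18 had 23.3 and 22.8 CPM in WT and 9.999 and 11.2 CPM in 3xGrk-/- (log2 fold change −1.12, SE 0.16). Among 18 genes of cAMP synthesis and breakdown, 6 were higher, 2 of them by 2-fold or more, and 2 lower (1 with DESeq2). Pde7b, a phosphodiesterase, had 0 and 2 counts in WT and 29 and 27 counts in 3xGrk-/- libraries. The cAMP-degrading phosphodiesterase gene Pde8a had 23.5 and 24.8 CPM in WT and 44.7 and 45.3 CPM in 3xGrk-/- (log2 fold change 0.89, SE 0.11). Pde3b had 24.7 and 20.5 CPM in WT and 13.9 and 15.9 CPM in 3xGrk-/- (log2 fold change −0.59, SE 0.15). Of 20 immediate early genes, which respond fast to many receptors, 11 were higher, 3 (15%) by 2-fold or more, and 4 were lower (2 with DESeq2), against 7 and 1 at the wider spread. Fos had 1.44 and 1.96 CPM in WT and 10.5 and 9.36 CPM in 3xGrk-/- (log2 fold change 2.5, SE 0.3). Fosl2, an AP-1 subunit, had 69.5 and 81.9 CPM in WT and 153 and 154 CPM in 3xGrk-/- (log2 fold change 1.0, SE 0.064). Nr4a3, a nuclear receptor, was lower with 739 and 763 CPM in WT and 578 and 612 CPM in 3xGrk-/- (log2 fold change −0.34, SE 0.037).

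Chemokines were the list with the highest median, 2.11. Of 20 tested, 15 were higher and 3 lower, 13 (65.0%) and 2 of them by 2-fold or more. Cxcl3, a chemokine that attracts neutrophils, had 23.9 and 22.2 CPM in WT and 606 and 623 CPM in 3xGrk-/- (log2 fold change 4.74, SE 0.063). Pf4 had 7.22 and 9.36 CPM in WT and 285 and 269.5 CPM in 3xGrk-/- (log2 fold change 5.03, SE 0.09). The monocyte attractant Ccl7 had 2.27 and 2.42 CPM in WT and 39.8 and 41.8 CPM in 3xGrk-/- (log2 fold change 4.1, SE 0.2). In these genes the 3xGrk-/- libraries were more than 16-fold above the WT libraries. Cxcl14 had 0 and 4 counts in WT and 224 and 196 counts in 3xGrk-/- libraries (log2 fold change 6.62, SE 0.3). Ccl17, a ligand of Ccr4, went the other way with 2298 and 2216 CPM in WT and 904 and 871 CPM in 3xGrk-/- (log2 fold change −1.35, SE 0.032). Ccl5 was lower by a small amount with 682 and 672 CPM in WT and 635 and 618 CPM in 3xGrk-/- (log2 fold change −0.11, SE 0.038).

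Among 15 cytokines tested 8 were higher, 5 of them by 2-fold or more, and 3 of the higher genes belong to the interleukin-1 family. Il1a had 4.95 and 5.29 CPM in WT and 92.2 and 100.2 CPM in 3xGrk-/- (log2 fold change 4.22, SE 0.13). Il1b had 13.4 and 11.9 CPM in WT and 87.4 and 83.5 CPM in 3xGrk-/- (log2 fold change 2.77, SE 0.11). Il1rn, the antagonist of their receptor, had 91.4 and 97.4 CPM in WT and 524 and 528 CPM in 3xGrk-/- (log2 fold change 2.47, SE 0.05). The ligands and their antagonist were thus higher in both 3xGrk-/- libraries. Lower were 3 cytokines, among them Ebi3 with 43.1 and 43.04 CPM in WT and 32.3 and 33.3 CPM in 3xGrk-/- and Il12b with 29.7 and 32.02 CPM in WT and 24.4 and 25.1 CPM in 3xGrk-/-. This count was 1 without 3xGrk-/- replicate 2 or without WT replicate 2 and 0 with DESeq2 or at the wider spread. The decoy receptor Il1r2 had 72.6 and 69.8 CPM in WT and 35.5 and 28.1 CPM in 3xGrk-/- (log2 fold change −1.15, SE 0.094). Il1rl1, the receptor of interleukin-33, had 64.5 and 53.9 CPM in WT and 19.03 and 18.9 CPM in 3xGrk-/- (log2 fold change −1.62, SE 0.11).

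Of 24 receptors of haematopoietic growth factors and cytokines, 12 were higher, none by 2-fold or more, and 5 lower, 3 (12.5%) by 2-fold or more. Il1rl1 and Il1r2, given above, were among the lower ones, and Il5ra, the receptor chain for interleukin-5, was lower with 2.06 and 1.96 CPM in WT and 0.645 and 0.562 CPM in 3xGrk-/- (log2 fold change −1.69, SE 0.58). The receptor of GM-CSF itself, the factor of the culture, was higher in both chains: Csf2ra had 299 and 272 CPM in WT and 438 and 422 CPM in 3xGrk-/- (log2 fold change 0.59, SE 0.043). Csf2rb had 2782 and 2801 CPM in WT and 4124 and 4140.2 CPM in 3xGrk-/- (log2 fold change 0.57, SE 0.026). Csf1r, the receptor of macrophage colony-stimulating factor, had 454 and 438 CPM in WT and 837 and 803 CPM in 3xGrk-/- (log2 fold change 0.88, SE 0.038). Flt3, the receptor of a DC growth factor, had 17.7 and 19.3 CPM in WT and 36.6 and 35.6 CPM in 3xGrk-/- (log2 fold change 0.95, SE 0.13).

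Toll-like receptors, which sense microbial molecules, were higher in more cases than lower. Of 16 genes in the list with Cd14, 10 were higher, 7 of them by 2-fold or more, and 5 were lower, 3 of them by 2-fold or more. Without 3xGrk-/- replicate 1 or with DESeq2, 3 were lower. Tlr11, a sensor of microbial profilin, fell with 8.25 and 6.34 CPM in WT and 1.13 and 1.87 CPM in 3xGrk-/- (log2 fold change −2.26, SE 0.33). Tlr8 had 3.51 and 3.32 CPM in WT and 33.7 and 25.1 CPM in 3xGrk-/- (log2 fold change 3.12, SE 0.2). Tlr7, a sensor of single-stranded RNA, had 6.19 and 5.89 CPM in WT and 44.99 and 40.1 CPM in 3xGrk-/- (log2 fold change 2.82, SE 0.16). Tlr1, which pairs with Tlr2, had 3.92 and 4.38 CPM in WT and 16.6 and 12.5 CPM in 3xGrk-/- (log2 fold change 1.81, SE 0.22). Tlr9, the sensor of unmethylated DNA, was lower with 52.8 and 62.4 CPM in WT and 33.7 and 36.7 CPM in 3xGrk-/- (log2 fold change −0.73, SE 0.097). NF-kB subunits and inhibitors moved little, with 10 higher and 2 lower of 19 and none by 2-fold or more, and 5 and 1 at the wider spread. Of 45 interferon-stimulated genes, 14 were higher (7 at the wider spread) and 8 lower, 2 (4.44%) and 5 (11.1%) of them by 2-fold or more. The median was 0.15, and the larger changes lay in both directions, more of them lower. The antiviral GTPase Mx1 had 958 and 894 CPM in WT and 436 and 437 CPM in 3xGrk-/- (log2 fold change −1.08, SE 0.038). Ifit2 had 16.9 and 14.3 CPM in WT and 4.84 and 3.93 CPM in 3xGrk-/- (log2 fold change −1.8, SE 0.21). Oas2, which makes the activator of RNase L, had 11.96 and 9.21 CPM in WT and 25.8 and 23.2 CPM in 3xGrk-/- (log2 fold change 1.24, SE 0.16). Irf7 had 9.07 and 9.36 CPM in WT and 16.1 and 18.4 CPM in 3xGrk-/- (log2 fold change 0.89, SE 0.18).

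Genes that present antigen on MHC class II fell in their majority. Of 16 genes of MHC class II presentation, 10 fell, 6 (37.5%) by 2-fold or more, and the median was −0.87. H2-Ab1, the beta chain of I-A, had 3808 and 3797 CPM in WT and 1216 and 1167 CPM in 3xGrk-/- (log2 fold change −1.67, SE 0.029). The less-known beta chain gene H2-Eb2 had 75.5 and 75.7 CPM in WT and 14.4 and 12.4 CPM in 3xGrk-/- (log2 fold change −2.49, SE 0.11). The class II genes are a family of similar sequences, so that reads could be split between them. Against this direction, the thiol reductase Ifi30 had 215 and 201 CPM in WT and 298 and 311 CPM in 3xGrk-/- (log2 fold change 0.55, SE 0.047). March1, a ligase that marks class II for degradation, had 79.2 and 92.9 CPM in WT and 116 and 113 CPM in 3xGrk-/- (log2 fold change 0.41, SE 0.067). Of 16 genes of class I presentation, 8 were higher and 4 lower, none by 2-fold or more, and 5 were higher with library sizes unscaled. No gene of class I presentation was called at the wider spread. The immunoproteasome subunit Psmb8 had 395 and 378 CPM in WT and 509 and 479 CPM in 3xGrk-/- (log2 fold change 0.36, SE 0.041). The peptide transporter Tap1 had 282 and 274 CPM in WT and 239 and 242 CPM in 3xGrk-/- (log2 fold change −0.21, SE 0.047). Costimulatory and coinhibitory genes moved both ways, 7 higher and 4 lower of 15, none by 2-fold or more, and 4 and 2 at the wider spread. The ligands of the inhibitory receptor PD-1 were higher: Pdcd1lg2 had 90.7 and 86.2 CPM in WT and 144 and 158 CPM in 3xGrk-/- (log2 fold change 0.77, SE 0.062). Cd274 had 498 and 493 CPM in WT and 763 and 752 CPM in 3xGrk-/- (log2 fold change 0.61, SE 0.038). The costimulatory ligands Icosl and Cd80 were lower, with log2 fold changes of −0.71 and −0.44.

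Transcription factors that set cell identity were spread over both directions. Of 19 factors tied to macrophages, 12 were higher, 7 (36.8%) by 2-fold or more, and 3 were lower, 2 (10.5%) by 2-fold or more. Bhlhe41 had 5.16 and 4.38 CPM in WT and 37.6 and 35.02 CPM in 3xGrk-/- (log2 fold change 2.94, SE 0.17). Maf had 2.27 and 3.32 CPM in WT and 20.8 and 19.7 CPM in 3xGrk-/- (log2 fold change 2.81, SE 0.22). Cebpb had 28.7 and 13.1 CPM in WT and 103 and 118 CPM in 3xGrk-/- (log2 fold change 2.47, SE 0.096). The WT libraries differed from each other in Cebpb by more than 2-fold, and both 3xGrk-/- libraries lay above them. Cebpa, of the same family, was lower with 74.2 and 65.4 CPM in WT and 45.2 and 51.1 CPM in 3xGrk-/- (log2 fold change −0.53, SE 0.087). Spic, a factor of red pulp macrophages, was lower with 6.81 and 7.55 CPM in WT and 3.06 and 2.997 CPM in 3xGrk-/- (log2 fold change −1.25, SE 0.28). Pparg, a nuclear receptor of alveolar macrophages, was lower with 8.04 and 6.34 CPM in WT and 3.55 and 2.43 CPM in 3xGrk-/- (log2 fold change −1.21, SE 0.28). Of 16 factors tied to DCs, 4 were higher and 7 lower, but 2 were higher with library sizes unscaled and 4 lower with DESeq2, and 2 and 4 were called at the wider spread. Irf4 had 449 and 437 CPM in WT and 288 and 303 CPM in 3xGrk-/- (log2 fold change −0.59, SE 0.043). Its relative Irf8, which also serves macrophages, had 300.1 and 317 CPM in WT and 547 and 547 CPM in 3xGrk-/- (log2 fold change 0.82, SE 0.042). Zeb2 had 68.7 and 75.2 CPM in WT and 148 and 152 CPM in 3xGrk-/- (log2 fold change 1.05, SE 0.066).

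Genes used as signs of alternative macrophage activation, the state that interleukin-4 induces, went far in both directions. Of 15 tested, 8 were higher and 6 lower, 4 and 5 of them by 2-fold or more. Retnla, a secreted protein of such macrophages, had 0.412 and 1.51 CPM in WT and 56.4 and 68.7 CPM in 3xGrk-/- (log2 fold change 5.87, SE 0.21). The matrix protein fibronectin, Fn1, had 51.97 and 47.4 CPM in WT and 1903 and 1895 CPM in 3xGrk-/- (log2 fold change 5.26, SE 0.047). The galactose-binding lectins Mgl2 and Clec10a were lower in the same libraries. Mgl2 had 890.5 and 892 CPM in WT and 181 and 179 CPM in 3xGrk-/- (log2 fold change −2.31, SE 0.043). Clec10a had 38.98 and 35.6 CPM in WT and 8.39 and 6.93 CPM in 3xGrk-/- (log2 fold change −2.26, SE 0.15).

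**Figure D3:**
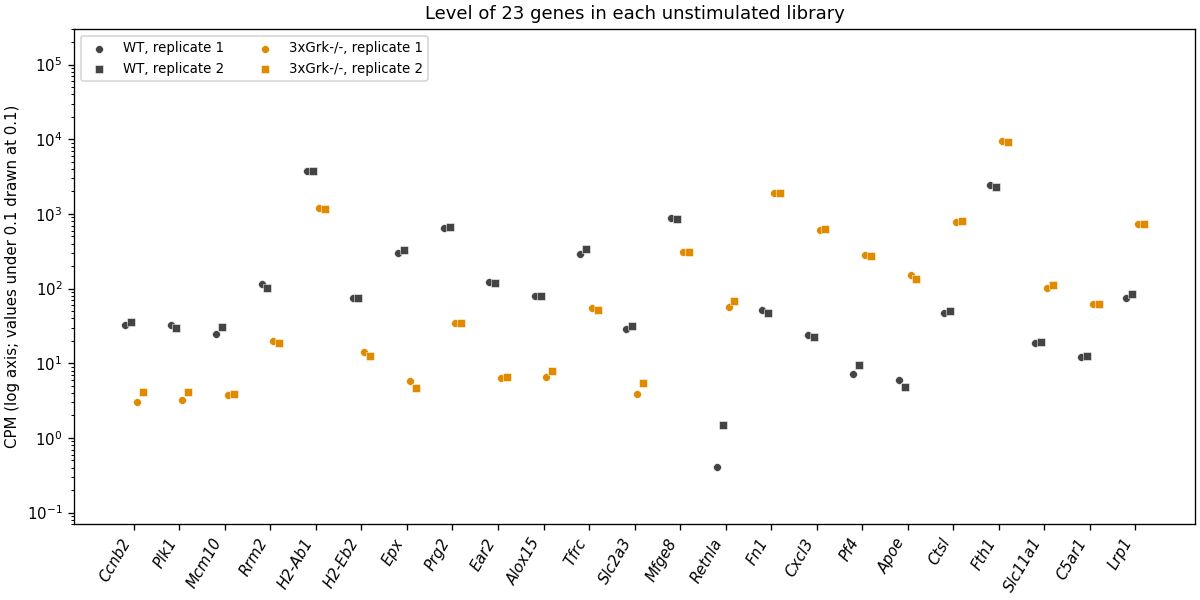
The CPM of 23 named genes are shown in each of the 4 unstimulated libraries on a log axis, WT in grey and 3xGrk-/- in orange, circles for replicate 1 and squares for replicate 2. Lack of overlap of the genotypes was a condition for naming these genes and is no result of its own, and 69.2% of all genes tested had none. Replicates of a genotype lie close together except at the lowest levels.

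The list of genes of lipid-associated macrophages, cells that take up and process lipid, moved in 1 direction. All 22 were tested and all 22 were higher, 13 (59.1%) by 2-fold or more, with a median of 1.08. Its sum was 8689 and 8843 CPM in WT and 24270 and 24094 CPM in 3xGrk-/- libraries. Apoe, an apolipoprotein that carries cholesterol out of cells, had 5.98 and 4.83 CPM in WT and 151 and 136 CPM in 3xGrk-/- (log2 fold change 4.75, SE 0.12). Ctsl, a lysosomal protease, had 47.4 and 49.99 CPM in WT and 786 and 810.4 CPM in 3xGrk-/- (log2 fold change 4.03, SE 0.053). Spp1, osteopontin, had 85.6 and 103 CPM in WT and 853 and 841 CPM in 3xGrk-/- (log2 fold change 3.15, SE 0.047). The list shares members with the lysosomal and cholesterol lists below, so that these are not separate observations. Of 13 targets of the sterol receptor LXR and genes of cholesterol efflux, 10 were higher and none lower, 7 by 2-fold or more. Lpl, lipoprotein lipase, had 692 and 710.3 CPM in WT and 3484 and 3527 CPM in 3xGrk-/- (log2 fold change 2.32, SE 0.031). Pltp, the phospholipid transfer protein, had 8.87 and 9.21 CPM in WT and 28.2 and 29.4 CPM in 3xGrk-/- (log2 fold change 1.66, SE 0.16).

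More lysosomal genes were called higher than lower. Of 44 proteases and hydrolases, 29 were higher and 9 lower (4 at the wider spread), 6 and 3 of them by 2-fold or more, and their median was 0.39. The aspartic protease Ctsd had 548 and 563 CPM in WT and 2616 and 2574 CPM in 3xGrk-/- (log2 fold change 2.22, SE 0.033). Acp5, tartrate-resistant acid phosphatase, had 9.28 and 8.61 CPM in WT and 32.3 and 37.1 CPM in 3xGrk-/- (log2 fold change 1.95, SE 0.15). The lower ones included Arsb, a sulfatase, with 49.3 and 50.3 CPM in WT and 21.6 and 24.2 CPM in 3xGrk-/- (log2 fold change −1.13, SE 0.11). Of 24 lysosomal membrane proteins, 15 were higher and none lower, or 2 lower with library sizes unscaled and 1 lower without 3xGrk-/- replicate 2. Of these proteins 7 were higher at the wider spread. Slc11a1, a metal ion transporter of phagosomes, had 18.8 and 19.03 CPM in WT and 103 and 111 CPM in 3xGrk-/- (log2 fold change 2.5, SE 0.097). Cd68 had 57.7 and 62.2 CPM in WT and 269 and 242 CPM in 3xGrk-/- (log2 fold change 2.09, SE 0.061). Atp13a2, a polyamine transporter, had 43.1 and 44.6 CPM in WT and 174 and 183 CPM in 3xGrk-/- (log2 fold change 2.02, SE 0.07). Of 19 subunits of the vacuolar ATPase, the proton pump of lysosomes, 15 were higher (9 at the wider spread) and 1 lower, the largest change being that of Atp6v0d2 with 22.9 and 28.8 CPM in WT and 125 and 125 CPM in 3xGrk-/- (log2 fold change 2.25, SE 0.087).

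The letters CACGTG, a palindrome that reads alike on both strands and lies within the element bound by the lysosomal regulators TFEB and TFE3, were found in the promoter windows of 9 of 35 hydrolase genes (25.7%), 5 of 21 membrane protein genes (23.8%) and 2 of 13 vacuolar ATPase genes (15.4%), and in 8.63% of all windows. Shares near these were found in other lists, such as 23.1% of transcription factors of DCs and 21.4% of MHC class I genes, and no share was tested. The window of Slc36a1, a lysosomal amino acid transporter with 33 and 31.6 CPM in WT and 75.2 and 70.2 CPM in 3xGrk-/-, lies at chr11:55204090-55204339 on the plus strand and is shown with the match in capitals.
Slc36a1 promoter: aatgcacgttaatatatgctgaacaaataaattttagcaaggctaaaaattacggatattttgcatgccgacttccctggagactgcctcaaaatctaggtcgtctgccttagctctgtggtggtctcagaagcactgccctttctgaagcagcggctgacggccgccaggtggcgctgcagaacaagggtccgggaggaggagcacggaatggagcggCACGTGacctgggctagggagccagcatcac

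The AP-1 element TGACTCA was searched in the same way on both strands. It was found in 33 of 428 windows of genes higher by 2-fold or more (7.71%), in 19 of 630 windows of genes lower by 2-fold or more (3.02%) and in 2.92% of all windows. Among the oxidative stress genes described below it was found in 5 of 26 windows (19.2%), and it lies within many elements bound by NRF2. Shares as high or higher were found in lists such as cytokines (30.8%), eosinophil genes (22.2%) and NF-kB genes (20%), and lower shares in many others. The looser pattern TGANNNNGC for such elements, where N is any base, was found in 46.2% of the oxidative stress windows and in 37.2% of all windows. Its shares were 38.3% in genes higher and 37.9% in genes lower by 2-fold or more. No test was made of these shares. Matches to TGACTCA are shown in capitals in the windows of Il1a and Prdx1. The window of Il1a lies at chr2:129309973-129310222 on the minus strand. That of Prdx1 lies at chr4:116685349-116685598 on the plus strand, and its 2 matches lie on opposite strands.
Il1a promoter: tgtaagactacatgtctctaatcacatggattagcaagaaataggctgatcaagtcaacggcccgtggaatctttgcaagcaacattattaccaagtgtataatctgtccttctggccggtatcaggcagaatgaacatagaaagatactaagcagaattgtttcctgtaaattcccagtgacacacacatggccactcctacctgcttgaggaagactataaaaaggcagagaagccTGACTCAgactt
Prdx1 promoter: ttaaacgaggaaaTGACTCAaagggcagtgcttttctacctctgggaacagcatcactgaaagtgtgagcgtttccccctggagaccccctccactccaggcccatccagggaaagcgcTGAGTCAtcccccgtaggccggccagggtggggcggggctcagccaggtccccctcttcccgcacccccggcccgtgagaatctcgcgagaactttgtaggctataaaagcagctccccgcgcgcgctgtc

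Uptake receptors moved in both directions within each family. Of 16 scavenger and efferocytosis receptors and their bridging proteins, 9 were higher, 8 of them by 2-fold or more, and 5 were lower. The number lower was 2 without 3xGrk-/- replicate 1 or with DESeq2, and 3 without 3xGrk-/- replicate 2, without WT replicate 1 or at the wider spread. Lrp1, an endocytic receptor with many ligands, had 75.5 and 84.6 CPM in WT and 727 and 724 CPM in 3xGrk-/- (log2 fold change 3.17, SE 0.049). Stab1 had 15.7 and 19.5 CPM in WT and 149.7 and 147 CPM in 3xGrk-/- (log2 fold change 3.06, SE 0.091). Olr1, a receptor of oxidized lipoprotein, had 22.1 and 23.7 CPM in WT and 136 and 137 CPM in 3xGrk-/- (log2 fold change 2.57, SE 0.088). The bridging protein Mfge8, which links dying cells to integrins, was lower with 894 and 867 CPM in WT and 311 and 305 CPM in 3xGrk-/- (log2 fold change −1.51, SE 0.04), and so was Axl, a receptor for such bridging proteins, with 636 and 629.8 CPM in WT and 374 and 377 CPM in 3xGrk-/- (log2 fold change −0.75, SE 0.04). Receptors of antibodies split as well. Fcgr2b, the inhibitory receptor of immunoglobulin G, had 96.1 and 85.2 CPM in WT and 294 and 283 CPM in 3xGrk-/- (log2 fold change 1.68, SE 0.055). The activating receptor Fcgr3 had 154 and 142 CPM in WT and 275 and 267 CPM in 3xGrk-/- (log2 fold change 0.88, SE 0.05). Fcgrt, the neonatal Fc receptor, had 86.2 and 88.05 CPM in WT and 17.7 and 17.2 CPM in 3xGrk-/- (log2 fold change −2.32, SE 0.1). Fcgr1 had 40.4 and 38.4 CPM in WT and 25.3 and 25.1 CPM in 3xGrk-/- (log2 fold change −0.64, SE 0.12). Fcer1g, the signalling chain that several of them share, had 151 and 151 CPM in WT and 263 and 256 CPM in 3xGrk-/- (log2 fold change 0.78, SE 0.05).

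All 21 C-type lectin receptors tested were called, 11 higher and 10 lower, or 7 higher without 3xGrk-/- replicate 2 or with DESeq2 and 8 higher and 10 lower with library sizes unscaled. Clec4e, which senses mycobacterial glycolipid, had 23.1 and 29.9 CPM in WT and 205 and 201 CPM in 3xGrk-/- (log2 fold change 2.91, SE 0.076). Its neighbour Clec4d had 35.3 and 33.8 CPM in WT and 241 and 231 CPM in 3xGrk-/- (log2 fold change 2.78, SE 0.07). Clec5a had 44.5 and 48.2 CPM in WT and 195 and 196 CPM in 3xGrk-/- (log2 fold change 2.07, SE 0.068). Klrk1, known as NKG2D, was lower with 73.4 and 65.1 CPM in WT and 21.3 and 16.7 CPM in 3xGrk-/- (log2 fold change −1.84, SE 0.11). Of 14 complement components and receptors, 8 were higher and 6 lower, or 5 higher with at least 10 counts in every library. The higher members C5ar1 and C3ar1 are also among the receptors coupled to G proteins, and Itgam among the integrins and BMDC markers. Their changes are therefore not separate observations. The chains of C1q, which start the classical pathway, were lower together. C1qa had 64.5 and 58.3 CPM in WT and 19.8 and 20.2 CPM in 3xGrk-/-. C1qb had 171 and 175 CPM in WT and 45.96 and 43.8 CPM in 3xGrk-/-. C1qc had 101 and 101 CPM in WT and 26.6 and 28.5 CPM in 3xGrk-/-. The central component C3 was higher with 231 and 219 CPM in WT and 649 and 657 CPM in 3xGrk-/- (log2 fold change 1.54, SE 0.043).

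Of 17 iron genes, 10 were higher and 3 lower, 6 and 2 of them by 2-fold or more. The metal ion transporter Slc11a1, described above, had the largest rise of this list. Tfrc, the transferrin receptor that takes iron into cells, had 290.4 and 335 CPM in WT and 55.2 and 51.5 CPM in 3xGrk-/- (log2 fold change −2.56, SE 0.06). Slc40a1, ferroportin, the exporter of iron, had 15.3 and 12.1 CPM in WT and 2.903 and 2.25 CPM in 3xGrk-/- (log2 fold change −2.36, SE 0.25). Fth1, the heavy chain of the storage protein ferritin, had 2417 and 2323 CPM in WT and 9436 and 9068 CPM in 3xGrk-/- (log2 fold change 1.97, SE 0.024). Hmox1, which frees iron from haem, had 67.4 and 72.5 CPM in WT and 185 and 187 CPM in 3xGrk-/- (log2 fold change 1.4, SE 0.063).

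Genes of the response to oxidative stress that NRF2 controls, with glutathione and pentose phosphate genes, were mostly higher. Of 32 tested, 23 were higher, 8 (25.0%) by 2-fold or more, and 4 were lower, or 2 without either WT library or at the wider spread and 1 with DESeq2. Prdx1, a peroxiredoxin, had 602 and 599 CPM in WT and 2649 and 2597 CPM in 3xGrk-/- (log2 fold change 2.13, SE 0.033). Nqo1, a quinone reductase, had 15.7 and 19.5 CPM in WT and 62.7 and 57.7 CPM in 3xGrk-/- (log2 fold change 1.76, SE 0.11). Mgst2, a microsomal glutathione transferase, had 5.98 and 4.53 CPM in WT and 22.6 and 25.7 CPM in 3xGrk-/- (log2 fold change 2.22, SE 0.19). Cat, catalase, was lower with 283 and 302 CPM in WT and 244 and 239 CPM in 3xGrk-/- (log2 fold change −0.28, SE 0.046). Of 31 genes of the unfolded protein response and of ATF4, 6 were higher and 15 lower (9 at the wider spread). The direction differed within the list: Herpud1, of the degradation of misfolded proteins, had 200.5 and 203 CPM in WT and 98.1 and 99.8 CPM in 3xGrk-/- (log2 fold change −1.03, SE 0.058). The cystine importer Slc7a11 had 207 and 223 CPM in WT and 507 and 541 CPM in 3xGrk-/- (log2 fold change 1.28, SE 0.044).

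Genes of lipid synthesis were lower in more cases than higher. Of 33 genes of sterol and fatty acid synthesis, 5 were higher (3 at the wider spread) and 16 lower, and their median was −0.26. Fasn, fatty acid synthase, had 351 and 325 CPM in WT and 155 and 152 CPM in 3xGrk-/- (log2 fold change −1.13, SE 0.049). The desaturase Fads2 had 27.2 and 26.7 CPM in WT and 8.06 and 9.74 CPM in 3xGrk-/- (log2 fold change −1.61, SE 0.16). The stearoyl-CoA desaturases were higher. Scd1 had 10.3 and 11.9 CPM in WT and 71.6 and 69.7 CPM in 3xGrk-/- (log2 fold change 2.65, SE 0.12). Scd2 had 171 and 184 CPM in WT and 313 and 319 CPM in 3xGrk-/- (log2 fold change 0.82, SE 0.048). Acss2, which activates acetate, was higher too, with 14.6 and 13.9 CPM in WT and 35 and 33.7 CPM in 3xGrk-/- (log2 fold change 1.27, SE 0.14). Among 14 genes of prostaglandin and leukotriene synthesis, 7 were higher and 4 lower. Ptges, which forms prostaglandin E2, had 2.89 and 2.11 CPM in WT and 29.5 and 26.6 CPM in 3xGrk-/- (log2 fold change 3.52, SE 0.21). Pla2g4a, the phospholipase that frees arachidonic acid, had 17.1 and 14.3 CPM in WT and 32.4 and 34.6 CPM in 3xGrk-/- (log2 fold change 1.11, SE 0.13). On the leukotriene side, Lta4h was lower with 181 and 190.3 CPM in WT and 93.4 and 95.5 CPM in 3xGrk-/- (log2 fold change −0.98, SE 0.059). Ltc4s was higher with 26.4 and 26.6 CPM in WT and 50.5 and 51.1 CPM in 3xGrk-/- (log2 fold change 0.94, SE 0.11).

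Energy metabolism changed by smaller amounts. Of 30 glycolysis and hypoxia genes, 15 were higher and 6 lower (8 and 3 at the wider spread), and the glucose transporters changed in opposite directions: Slc2a1 had 81.5 and 77.6 CPM in WT and 194 and 195 CPM in 3xGrk-/- (log2 fold change 1.29, SE 0.061). Slc2a3 had 29.1 and 31.4 CPM in WT and 3.87 and 5.43 CPM in 3xGrk-/- (log2 fold change −2.72, SE 0.18). Of 75 nuclear-encoded respiratory chain subunits, 17 were higher and 8 lower and 50 were not called, none reaching 2-fold. With library sizes unscaled the direction of this list turned, with 5 higher and 14 lower, and DESeq2 called 5 higher and 4 lower. At the wider spread 1 was higher and 2 were lower. The number higher was 8 without 3xGrk-/- replicate 1 and 9 without WT replicate 2, and the number lower was 5 without WT replicate 1. In arginine and polyamine metabolism 7 of 19 genes were higher and 6 lower, which turned to 5 and 8 with library sizes unscaled. Without WT replicate 2, 4 were higher, without 3xGrk-/- replicate 2, 3 were lower, and DESeq2 called 4 higher and 3 lower. These were 3 and 2 at the wider spread. Slc7a2, an importer of arginine, had 21.4 and 24.5 CPM in WT and 493 and 503 CPM in 3xGrk-/- (log2 fold change 4.42, SE 0.065). Ass1, which remakes arginine from citrulline, had 419 and 438 CPM in WT and 826 and 803 CPM in 3xGrk-/- (log2 fold change 0.93, SE 0.038). Odc1, the first enzyme of polyamine synthesis, was lower with 131 and 133 CPM in WT and 71.6 and 68.5 CPM in 3xGrk-/- (log2 fold change −0.91, SE 0.068).

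Enzymes that cut the extracellular matrix were higher in most cases. Of 19 matrix metalloproteinases, ADAMs and TIMPs tested, 14 were higher and 4 lower, 10 (52.6%) and 3 of them by 2-fold or more. Mmp8 is named above, and Mmp14, a membrane-bound collagenase, had 21.04 and 21.9 CPM in WT and 141 and 147 CPM in 3xGrk-/- (log2 fold change 2.74, SE 0.088). Mmp13 had 7.42 and 5.44 CPM in WT and 42.4 and 41.6 CPM in 3xGrk-/- (log2 fold change 2.74, SE 0.16). Adam19 and Adam23 were lower. Adam19 had 223 and 219 CPM in WT and 80.5 and 75.1 CPM in 3xGrk-/- (log2 fold change −1.5, SE 0.059). Adam23 had 547 and 531 CPM in WT and 254 and 258 CPM in 3xGrk-/- (log2 fold change −1.07, SE 0.043). Of 19 leukocyte integrins and their partners, 9 were higher and 5 lower. Itgad had 0.619 and 0.604 CPM in WT and 24.7 and 23.97 CPM in 3xGrk-/- (log2 fold change 5.27, SE 0.3). Itgam, the alpha chain of the complement receptor CR3, had 133 and 139.7 CPM in WT and 403 and 401 CPM in 3xGrk-/- (log2 fold change 1.56, SE 0.049). Itgae, which binds E-cadherin, had 36.7 and 35.3 CPM in WT and 12.9 and 9.74 CPM in 3xGrk-/- (log2 fold change −1.65, SE 0.14). Itgal, the alpha chain of LFA-1, had 266 and 257 CPM in WT and 137 and 129.8 CPM in 3xGrk-/- (log2 fold change −0.96, SE 0.051). Of 38 actin and migration genes, 19 were higher and 7 lower, and 16 and 10 with library sizes unscaled, and 4 were lower with DESeq2. At the wider spread 5 were higher and 1 was lower. The only one past 2-fold was the GTPase Rhob, with 18.1 and 17.2 CPM in WT and 106 and 105 CPM in 3xGrk-/- (log2 fold change 2.58, SE 0.099). The bundling protein Fscn1, a feature of mature DCs, had 1925 and 1816 CPM in WT and 2579 and 2604 CPM in 3xGrk-/- (log2 fold change 0.47, SE 0.029).

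**Figure D4:**
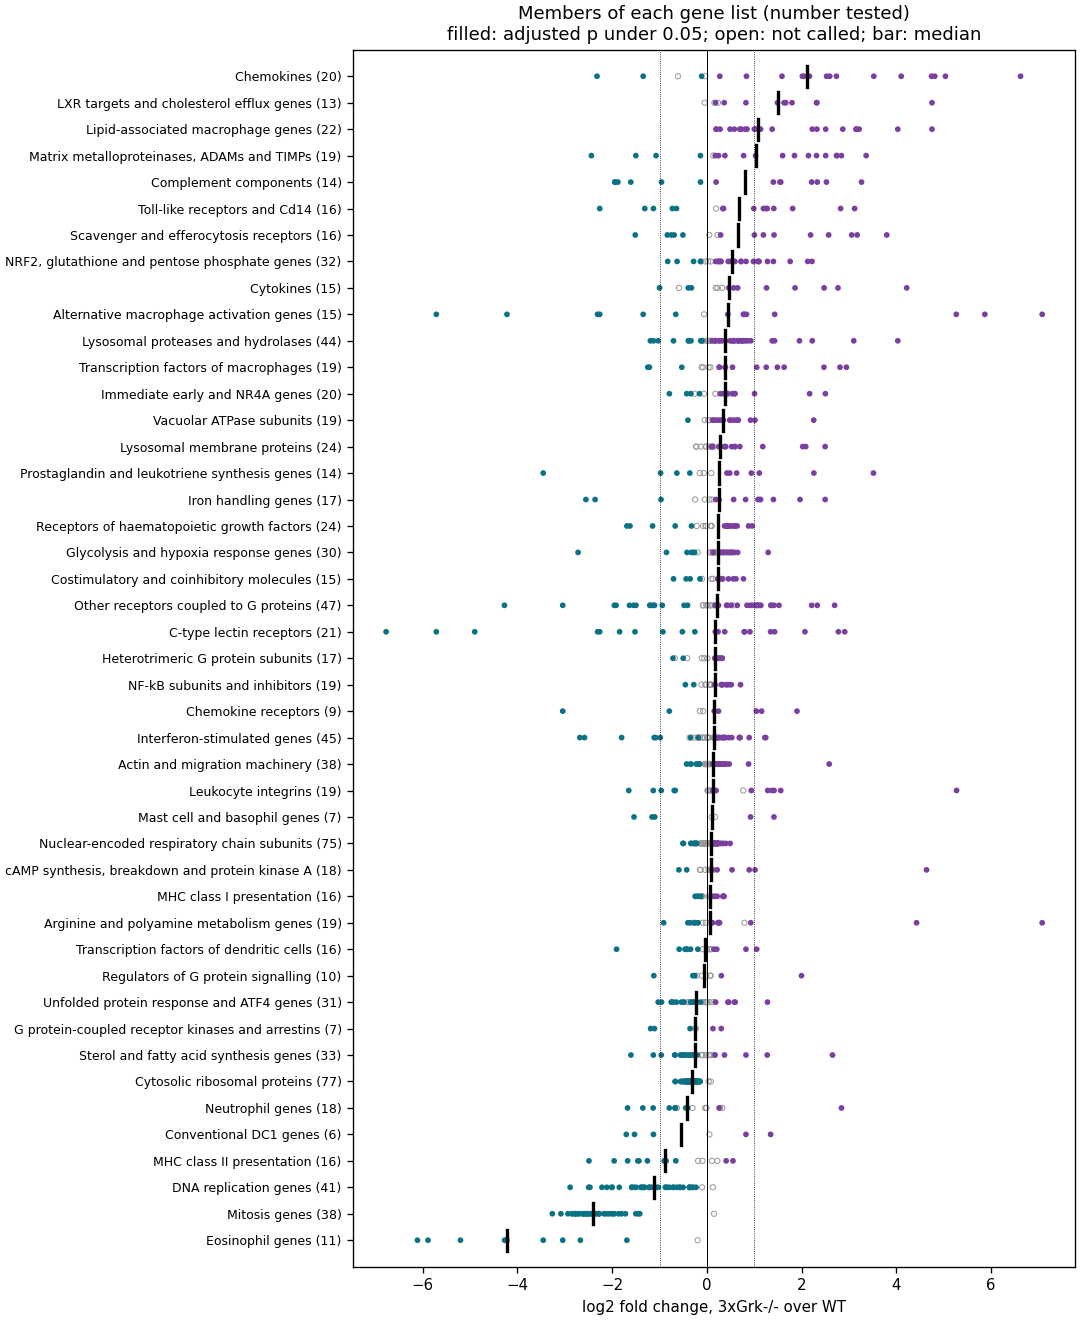
Each row is a gene list with at least 6 tested members, each point a member at its log2 fold change of 3xGrk-/- over WT, filled where the adjusted p is under 0.05 and open where it is not, and bars are list medians. Medians run from −4.22 for eosinophil genes to 2.11 for chemokines; Cd209d in the lectin list has no count in either 3xGrk-/- library, so its place depends on the prior count of the fit.

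The genes with the largest change, 14 higher and 15 lower among named genes at a mean log2 CPM of at least 3 without overlap of the genotypes, came from several of these groups. Besides the genes above, the higher ones held Elavl4, an RNA-binding protein known from neurons, with 1 count in the WT libraries together and 218 in the 3xGrk-/- libraries, a ratio of 217 with a 95% counting interval from 38.5 to 8603. Clmp, a cell adhesion molecule, had 0.412 and 1.21 CPM in WT and 38.5 and 38.6 CPM in 3xGrk-/- (log2 fold change 5.43, SE 0.25). Pcdh7, a protocadherin, had 2.68 and 1.96 CPM in WT and 45.96 and 44.01 CPM in 3xGrk-/- (log2 fold change 4.3, SE 0.19). The growth factor Igf1 had 3.92 and 3.32 CPM in WT and 60.5 and 77.2 CPM in 3xGrk-/- (log2 fold change 4.25, SE 0.16). The lower ones held Epcam, an adhesion molecule known from epithelia and Langerhans cells, with 17.5 and 21.1 CPM in WT and 1.13 and 1.69 CPM in 3xGrk-/- (log2 fold change −3.8, SE 0.27). Cd209c, a lectin of the DC-SIGN family, had 34.9 and 36.4 CPM in WT and 1.77 and 1.12 CPM in 3xGrk-/- (log2 fold change −4.58, SE 0.23). Cd300e, a receptor of myeloid cells, had 16.9 and 17.2 CPM in WT and 0.968 and 0.562 CPM in 3xGrk-/- (log2 fold change −4.42, SE 0.31). Id3, an inhibitor of helix-loop-helix factors, had 17.7 and 15.3 CPM in WT and 1.45 and 0.936 CPM in 3xGrk-/- (log2 fold change −3.73, SE 0.29). Ehf, an ETS factor, had 15.5 and 13.9 CPM in WT and 0.968 and 0.749 CPM in 3xGrk-/- (log2 fold change −4.04, SE 0.32). Mucl1, Sept3 and Tcea3 were the other lower genes, with log2 fold changes of −4.96, −4.19 and −3.74.

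The change of genotype in LPS-stimulated cells, which comes from other libraries, was set beside these 29 genes. The labels do not say whether those libraries came from other mice or cultures, so they are no separate test of the genotype. The 14 higher genes were all higher and called after LPS too. Of the 15 lower genes, 10 were lower and called after LPS, and none was called in the opposite direction. The share of all genes called after LPS was not counted, so these counts have nothing to be read against. Cd300e, Sept3 and Ehf had too few counts to be tested after LPS. Epcam and Id3 were tested and not called (adjusted p = 0.0928 and 0.0624). The interaction of genotype and LPS was called in 16 of the 29, and in 32.5% of all 12541 genes in that fit. The 29 were chosen for their change without LPS, which the interaction subtracts, so that this count is no evidence of its own. Fn1 changed by 5.26 without and by 2.59 with LPS, Igf1 by 4.25 and 1.19, and Ccl7 by 4.1 and 6.18, so that the effect of the genotype on Ccl7 was larger and that on Fn1 and Igf1 smaller after LPS.

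**Figure D5:**
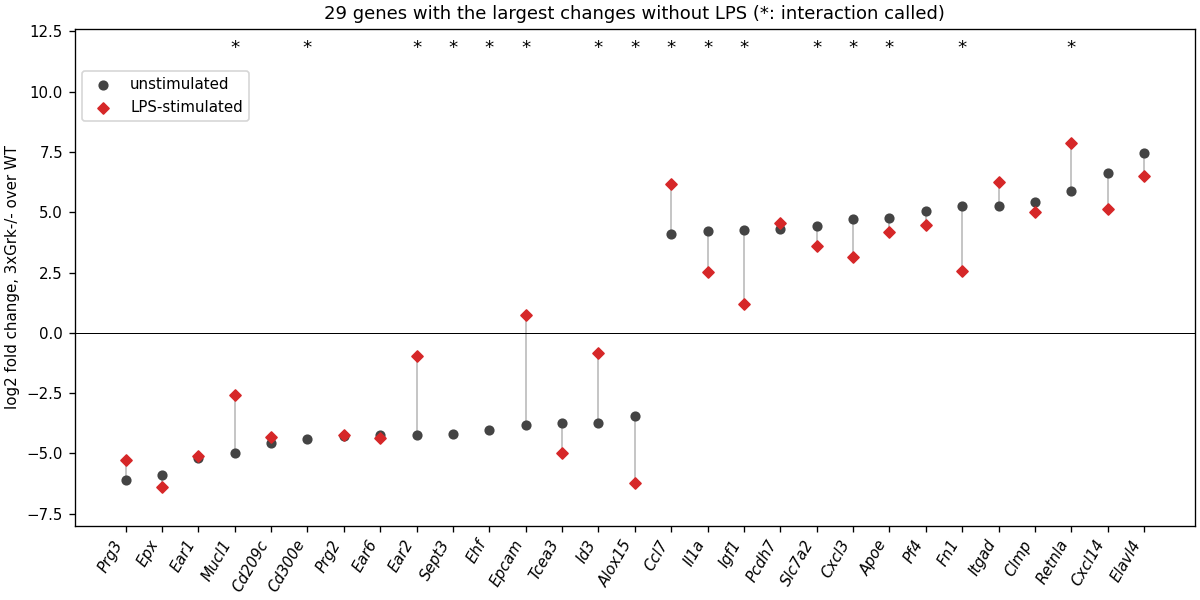
For the 29 genes with the largest changes, the log2 fold change of 3xGrk-/- over WT is given without LPS (circles) and with LPS (diamonds), with a line between both values and an asterisk where the interaction was called. The 14 higher genes stay above 0 in both, Epcam has a value above 0 after LPS, and no LPS value is drawn for Cd300e, Sept3 and Ehf, which were not tested there.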

How the data were processed

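RNA from BMDCs of 2 genotypes, without or with LPS, was sequenced from stranded mRNA libraries. The authors aligned reads with STAR and counted them per gene with featureCounts, and the deposited counts are raw whole numbers, with GRCm38 as the build per the labels. The annotation release and strand setting are not given in the sources used here, so a gene and its antisense partner cannot always be told apart. Of 47937 gene identifiers, 47310 were matched to symbols, and the others held 0.0535% of counts.

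Counts were fitted with edgeR 4.0.16 (R 4.3.3) by the quasi-likelihood test on the 4 unstimulated libraries, with filterByExpr on low counts, TMM scaling and Benjamini-Hochberg adjustment over all 12000 genes tested. A gene was called at an adjusted p under 0.05. The interaction with LPS was fitted on all 8 libraries. Depth was 4713305 to 6459415 counts per library, and intervals on sums of counts are exact at 95% and cover counting error only. On simulated data for this comparison (11767 genes), 93 of 100 genes changed 2-fold and 100 of 100 changed 4-fold were recovered, with 8 false calls. The simulation took its spread from these libraries and changed 200 genes, as many up as down. It therefore does not cover the spread between mice or cultures, or a change in as many genes as were called here. Members of a genotype differed by more than sampling noise (chi-square per gene 1.59 in WT and 1.74 in 3xGrk-/- libraries). The replicate numbers did not pair the samples (correlation of deviations −0.0046). DESeq2 1.42.0, other scalings and filters, a fixed coefficient of variation, a replicate block and leaving out each library were tried as alternatives.

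The groups and the 52 gene lists were chosen with earlier results of these data known. Genes named were the 3 targeted ones, the 15 with the largest change in each direction among called genes with a mean log2 CPM of at least 3, no overlap of the genotypes and an official symbol, and up to 3 members a list and direction under the same conditions. The rule also took every tested member of lists with 6 or fewer, and not all genes that the rule took are printed. The other genes named were chosen after their values were seen. CPM values, list sums and promoter matches were computed here. A few genes are not reported here. Promoter windows were read from RefSeq tables on GRCm38.p6.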

Additional observations from a re-analysis of the deposited data

Results flagged for a closer look

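Among the genes with the largest change in unstimulated cells, 16 differed in the effect of the genotype between unstimulated and LPS-stimulated cells by edgeR's interaction test (adjusted p under 0.05), as did 4070 of all 12541 genes in that fit. Values are the log2 fold change of 3xGrk-/- over WT with LPS minus that without. The difference was positive, that is toward a higher level in 3xGrk-/- cells after LPS, for Epcam at 4.55, Ear2 at 3.25, Id3 at 2.87 and Mucl1 at 2.40, which were lower in unstimulated 3xGrk-/- cells. It was also positive for Ccl7 at 2.08 and Retnla at 2.0, which were higher in unstimulated 3xGrk-/- cells. The difference was negative for Igf1 at −3.06, Fn1 at −2.68, Il1a at −1.68, Cxcl3 at −1.59, Slc7a2 at −0.82 and Apoe at −0.58, which were higher in unstimulated 3xGrk-/- cells. Alox15, lower without LPS, was lower still relative to WT with LPS, with a difference of −2.76. Cd300e, Sept3 and Ehf were also lower in unstimulated 3xGrk-/- cells and had fitted differences of 5.39, 4.78 and 4.24. They had too few counts after LPS to be tested for the genotype there, so that the size of these 3 values is uncertain. The genes were chosen for their change without LPS, which the difference subtracts.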

How the results depend on the processing

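DESeq2 called 1569 genes higher and 1517 lower, against 2647 and 2722. With a biological coefficient of variation of 0.1 set for every gene, in place of the 0.0306 estimated from these libraries, 1300 were higher and 1605 lower, and with 0.4, 195 were higher and 253 lower, all of them by 2-fold or more. A test against a 2-fold change called 338 higher and 462 lower, and a minimum of 10 counts in every library left 525 lower by 2-fold or more. DESeq2 gave 2643 genes for the interaction. Without scaling of library sizes 1968 were higher and 3525 lower, so that 35.8% of calls were higher against 49.3%. The cause of these shifts was not tested, apart from the sets with fewer genes. Leaving out 1 library gave 2097 to 2410 genes higher and 2156 to 2378 lower, and by 2-fold or more 554 to 592 and 769 to 852. The replicate numbers share only a number, and with the replicate block 2628 were higher and 2664 lower, 570 and 840 by 2-fold or more, with no named gene losing its call. Of 245 named genes called, 21 lost the call with DESeq2, 38 at 0.1 and 164 at 0.4, and 4 to 10 when 1 library was left out. No named gene turned its direction in any alternative run. With 2 libraries a genotype, the spread between mice or cultures was not measured.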

Other observations

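Genes next to the targeted loci are given as values. Of 107 genes tested within 1 Mb of Grk2, Grk3 or Grk6, 8 were higher and 5 lower by 2-fold or more (12.1% in both directions together, beside 4.82% higher and 7.22% lower of all genes tested). By locus these were 4 of 14 genes at Grk3 (28.6%), 4 of 57 at Grk2 (7.02%) and 5 of 36 at Grk6 (13.9%). Within 5 Mb, 17 of 327 were higher and 14 lower (9.48% together). Around Grk6, Dbn1 at 0.0125 Mb had a log2 fold change of −2.51, Mxd3 at 0.115 Mb of −2.40 and Cxcl14 at 0.828 Mb of 6.62. Around Grk3, the nearest such gene, 2900026A02Rik at 0.0705 Mb, had −1.21, Cmklr1 at 0.597 Mb had 2.45 and Tmem119 at 0.778 Mb had 4.94. Around Grk2, Tcirg1 at 0.379 Mb had 1.01, Ctsf at 0.549 Mb had −1.03 and Peli3 at 0.623 Mb had 3.64. Mxd3 belongs to the MAX-binding factors and Tmem119 is used as a marker of microglia. The part of the loci in these values was not tested.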
